A study of Homo sapiens with 16 samples.

Results

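VCP, also called p97, and 9 of the proteins that work with it were followed across HCT116 cells, an established human colon cancer line. The 10 genes are VCP, UFD1, NPLOC4, NSFL1C, FAF1, FAF2, UBXN7, UBXN1, UBXN4 and ZFAND2A. They were chosen by symbol, with earlier results of these data known. All 10 were found among the 22916 genes of the authors' normalised table and among the 17104 genes that passed the filter on low counts. By its title, the series concerns the upkeep of gene expression typical of a cell type by the proteasome.

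VCP is a hexameric ATPase that uses ATP to unfold ubiquitin-tagged proteins and pull them out of membranes and complexes, often so that the proteasome can degrade them. Cofactors decide where it works. The UFD1-NPL4 pair (NPL4 is encoded by NPLOC4) grips ubiquitin chains, p47 (NSFL1C) serves membrane fusion, and proteins with a UBX domain dock VCP onto chosen substrates. VCP is also known to extract NFE2L1 (NRF1), the activator of proteasome genes, from the endoplasmic reticulum.

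RNA was measured in 4 groups of 4 libraries. The first, truncation knockdown, was gene-edited to carry a shortened Rpn10 (a ubiquitin receptor of the proteasome, encoded by PSMD4) without its ubiquitin interacting motif, and was transfected with 4 pooled siRNAs that target OTUD5, a deubiquitinase. The others were truncation scramble (the same edit with a scrambled siRNA), WT knockdown (no edit, OTUD5 siRNA) and WT scramble (no edit, scrambled siRNA). All cells were transfected at 50 nM for 48 hours. The titles of the 4 truncation knockdown libraries say scramble, while their description and treatment labels say OTUD5 siRNA, which was followed here. Whether the edited line is 1 clone is not given in the sources used here, so a difference between lines and the effect of the edit cannot be told apart. The siRNAs were used as 1 mix, so the loss of OTUD5 and effects of single siRNAs on other genes cannot be told apart.

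The libraries held 28777244 to 29645663 counts each. OTUD5 averaged 20.7 ± 1.49 TMM-scaled CPM (counts scaled to an equal library total; SD, n = 4) in truncation knockdown cells against 94.9 ± 2.27 CPM in truncation scramble cells, and 20.02 ± 2.05 CPM in WT knockdown cells against 88.5 ± 3.18 CPM in WT scramble cells. PSMD4 averaged 321 ± 16.8, 202 ± 5.37, 263 ± 26.7 and 236 ± 13.2 CPM (SD, n = 4) in truncation knockdown, truncation scramble, WT knockdown and WT scramble cells, a level of the whole gene that does not test the edit. The epithelial markers EPCAM, KRT8, KRT18, KRT19 and CDH1 were present in every group, with group means of 28.4 CPM or more. CDH1 averaged 28.4 ± 2.696 and 28.5 ± 1.65 CPM in truncation knockdown and truncation scramble cells, against 59.6 ± 6.39 and 51.8 ± 3.84 CPM in WT knockdown and WT scramble cells (SD, n = 4). EPCAM averaged 112 ± 8.26 and 178 ± 5.15 CPM in the same truncation groups, against 176 ± 9.93 and 220.5 ± 11.5 CPM in the WT groups (SD, n = 4). CDH1, EPCAM and KRT19 had lower means in truncation than in WT cells under both siRNAs, while KRT8 and KRT18 had higher means. Libraries of the 2 genotypes overlapped for KRT8 under both siRNAs, and for KRT18 and KRT19 among scramble cells. The part of these shifts in the results by genotype was not tested. Of the 8 markers of other cell types, COL1A1 was at 33.6 to 50.5 CPM in the group means, and the other 7 had group means of 3.03 CPM or less. The highest of these was PTPRC in WT scramble cells, whose libraries ran from 0.07 to 11.7 CPM (SD 5.7). PTPRC had means of 0.19 to 0.34 CPM in the other groups. More genes were detected in WT knockdown replicate 3 (32264) than in any other library (25626 to 27765). Replicate 2 of the same group was the farthest from its own group (chi-square per degree of freedom of 16.5 to 20.8 against the other 3). Results that depend on these libraries are given with and without them.

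Promoter stretches are shown first, as a description of the genes. Of the 10 genes, 8 were higher in truncation cells among scramble cells and 7 among knockdown cells. Of all tested genes, 21.6% and 21.9% were higher in these comparisons. RefSeq promoters (GRCh38.p14, 250 bases before to 50 after the start, 35116 entries) matched 9 of the 10 genes, all but UFD1. The 2 entries of NPLOC4 and the entry of NSFL1C start well inside the annotated gene, away from its outermost start, and those of VCP, ZFAND2A and FAF2 start a shorter way inside it. The antioxidant response element core TGACNNNGC, a sequence that NRF1 and related factors are known to bind, was searched on both strands together with a pair of half-sites of the heat shock element, TTCNNGAA or GAANNTTC. The antioxidant core was found in the entries of VCP, ZFAND2A and FAF2, and in 13.35% of all entries. TTCNNGAA was found for ZFAND2A and FAF2 and in 7.74% of all entries, and GAANNTTC for FAF1 and in 6.77% of all entries. The motif is in capitals, each sequence reads 5′ to 3′ on the strand of the gene, and the FAF2 stretch runs past the start into the transcript.
VCP, antioxidant core, chr9:35072776-35072844, minus strand: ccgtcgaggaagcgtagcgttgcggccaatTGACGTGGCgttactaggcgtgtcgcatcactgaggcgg
ZFAND2A, antioxidant core, chr7:1160370-1160438, minus strand: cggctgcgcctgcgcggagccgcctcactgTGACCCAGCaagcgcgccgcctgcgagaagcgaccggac
ZFAND2A, heat shock half-sites, chr7:1160330-1160397, minus strand: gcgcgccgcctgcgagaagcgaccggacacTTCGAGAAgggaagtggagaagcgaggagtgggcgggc
FAF2, antioxidant core, chr5:176448337-176448405, plus strand: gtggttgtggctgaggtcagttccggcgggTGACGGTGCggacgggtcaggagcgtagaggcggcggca
The antioxidant cores begin 189, 212 and 18 bases before the start of VCP, ZFAND2A and FAF2. NPLOC4, NSFL1C and UBXN4, which were also higher in truncation cells, held none of the 3 motifs in these windows, and neither did UBXN1 and UBXN7, whose change by genotype was not called. A match is a stretch of letters and no measurement of binding, and its part in any change was not tested.

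In truncation cells the ATPase, both partners of the UFD1-NPL4 pair, p47, FAF2, UBXN4 and ZFAND2A were higher than in WT cells, whichever siRNA the cells had received. A gene is called here at a Benjamini-Hochberg adjusted p under 0.05 in edgeR's quasi-likelihood test over all 17104 genes. Among scramble cells 8 of the 10 genes rose and 0 fell, where 21.6% of all tested genes rose and 22.4% fell. Among knockdown cells 7 rose and 0 fell, where 21.9% of all tested genes rose and 23.6% fell. Because the 10 genes were chosen with earlier results of these data known, these counts describe them and do not test the set. The median log2 fold change of the 10 genes was 0.67 among scramble cells and 0.65 among knockdown cells, against medians of -0.02 and -0.0026 over all tested genes. For the called genes, 5.71% (for UFD1) to 52% (for FAF1) of all tested genes changed by as much in either direction among scramble cells. Among knockdown cells this share ran from 5.05% (for UFD1) to 24.4% (for UBXN4). CPM is a share of a library's RNA, so a change in a gene's RNA and a change in total RNA per cell cannot be told apart.

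With OTUD5 knockdown some of the same genes rose and others fell. Against scramble, VCP, UFD1, NPLOC4, FAF2, UBXN4 and ZFAND2A rose in both genotypes, and NSFL1C, FAF1 and UBXN1 fell in both. In WT cells 6 rose and 3 fell, where 25.2% of all tested genes rose and 25.1% fell. In truncation cells 7 rose and 3 fell, where 28.7% of all tested genes rose and 28.1% fell. The 3 that fell in each genotype are near the share over all tested genes. The 10 genes had median log2 fold changes of 0.24 in truncation cells and 0.26 in WT cells, against 0.023 and 0.006 over all tested genes. Of all tested genes, 19.9% (for FAF2) to 64.6% (for UBXN7) changed by as much in either direction in WT cells. In truncation cells this share ran from 24.4% (for FAF2) to 71.6% (for UBXN4). The comparisons by genotype and by knockdown share groups, so they are given side by side and their likeness is not used as a result.

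**Figure D1:**
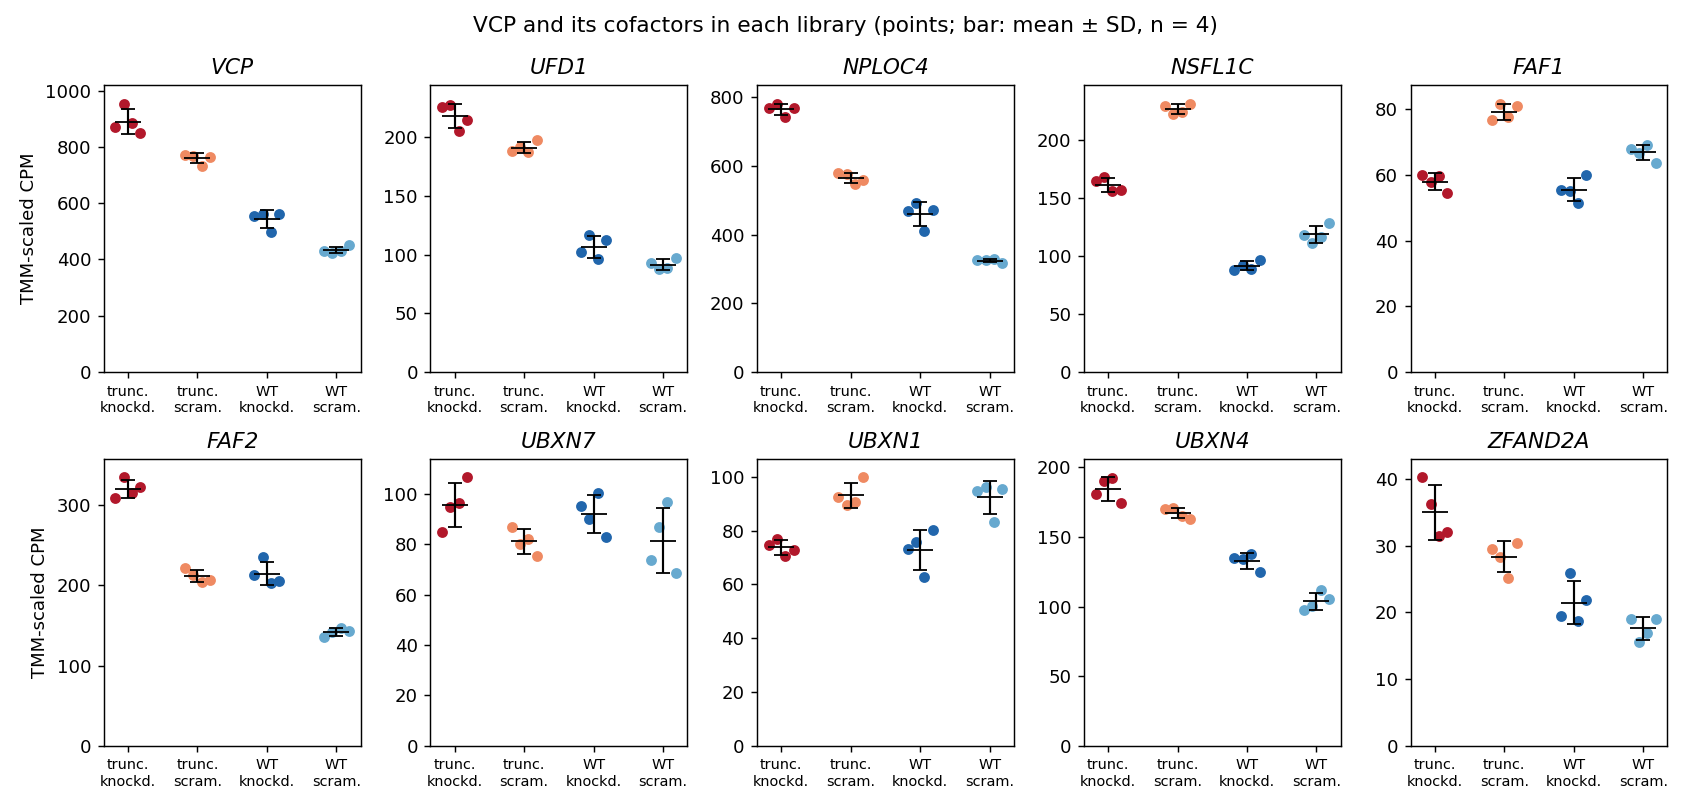
TMM-scaled CPM of each gene (vertical axis, from 0) in the 16 libraries, with truncation knockdown, truncation scramble, WT knockdown and WT scramble from left to right. Points are libraries and bars are mean ± SD (n = 4); VCP runs from 425 to 954 CPM, and NSFL1C is lower in both knockdown groups than in the scramble group of the same genotype.

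VCP, the ATPase itself (ENSG00000165280, chromosome 9, 35056064 to 35073249), was the most abundant of the 10 per kb of exon. It stood at 871, 954, 884 and 850 CPM in truncation knockdown cells and at 769.8, 769, 733 and 766 CPM in truncation scramble cells. It stood at 555, 562, 497 and 562 CPM in WT knockdown cells and at 429, 425, 431 and 452 CPM in WT scramble cells. The 4 groups do not overlap, with truncation knockdown highest and WT scramble lowest. VCP was higher in truncation cells by 1.73-fold among scramble cells (log2 0.79 ± 0.05 SE, adjusted p = 1.39e-12) and 1.65-fold among knockdown cells (log2 0.72 ± 0.05, adjusted p = 8.71e-12). Knockdown raised it 1.26-fold in WT cells (log2 0.33 ± 0.05, adjusted p = 2.66e-06) and 1.199-fold in truncation cells (log2 0.26 ± 0.05, adjusted p = 4.9e-05).

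UFD1 (ENSG00000070010, chromosome 22, 19449910 to 19479215), the ubiquitin-binding partner of NPL4, changed most with the truncation. Its CPM was 226, 227, 206 and 215 in truncation knockdown cells and 188, 192, 187 and 198 in truncation scramble cells. It was 103, 117, 96.0 and 112 CPM in WT knockdown cells and 92.9, 87.5, 88.5 and 97.4 CPM in WT scramble cells. Every truncation library lies above every WT library. The log2 fold change by truncation was 1.05 ± 0.06 among scramble cells (adjusted p = 1.59e-13) and 1.04 ± 0.06 among knockdown cells (adjusted p = 1.82e-13), which is 2.07-fold and 2.06-fold. Of all tested genes, 5.71% and 5.05% changed by as much in either direction in these comparisons. Knockdown gave smaller rises, of log2 0.23 ± 0.06 in both WT cells (adjusted p = 0.00144) and truncation cells (adjusted p = 0.00129), and in WT cells the libraries of the 2 groups overlapped.

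NPLOC4 (ENSG00000182446, chromosome 17, 81556887 to 81648465) encodes NPL4, which is known to hold an unfolded ubiquitin at the entrance of VCP. It had 769.9, 779, 742 and 769 CPM in truncation knockdown cells and 581, 575, 548 and 558 CPM in truncation scramble cells. It had 468, 491, 409 and 472 CPM in WT knockdown cells and 325, 326, 329 and 318 CPM in WT scramble cells. The 4 groups do not overlap. NPLOC4 was higher in truncation cells by log2 0.79 ± 0.05 among scramble cells (adjusted p = 1.85e-12) and 0.74 ± 0.05 among knockdown cells (adjusted p = 5.23e-12). Knockdown raised it by log2 0.51 ± 0.05 in WT cells (adjusted p = 4.24e-09) and 0.47 ± 0.05 in truncation cells (adjusted p = 8.6e-09). TSPAN10, on the opposite strand, spans 36 bases of NPLOC4 exons and had 47 to 116 counts per library, far below NPLOC4.

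NSFL1C (ENSG00000088833, chromosome 20, 1442162 to 1473842) encodes p47, a cofactor of VCP in the reassembly of Golgi and endoplasmic reticulum membranes. It had 165, 168, 156 and 157 CPM in truncation knockdown cells and 229, 222, 225 and 231 CPM in truncation scramble cells. It had 88.4, 92.2, 88.7 and 96.8 CPM in WT knockdown cells and 118, 112, 117 and 128 CPM in WT scramble cells. The 4 groups do not overlap, and the truncation scramble libraries are the highest. It was higher in truncation cells by log2 0.92 ± 0.05 among scramble cells (adjusted p = 2.27e-13) and 0.83 ± 0.05 among knockdown cells (adjusted p = 2.12e-12). Knockdown lowered it, by a log2 fold change of -0.36 ± 0.05 in WT cells (adjusted p = 2.09e-06) and -0.46 ± 0.05 in truncation cells (adjusted p = 3.33e-08). NSFL1C thus rose with one alteration and fell with the other.

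FAF1, FAF2 and UBXN7 are adaptors that hold a ubiquitin-binding UBA domain and a VCP-binding UBX domain, and they differed from each other in both directions. FAF2 (ENSG00000113194, chromosome 5, 176447628 to 176510074), which sits in the membrane of the endoplasmic reticulum and of lipid droplets, had 309, 334, 315 and 323 CPM in truncation knockdown cells and 221, 213, 204 and 207 CPM in truncation scramble cells. It had 213, 235, 203 and 206 CPM in WT knockdown cells and 136, 142, 147 and 144 CPM in WT scramble cells. Truncation scramble and WT knockdown libraries overlap, with truncation knockdown above and WT scramble below. FAF2 had the largest rise of the 10 with knockdown, of log2 0.60 ± 0.05 in WT cells (adjusted p = 7.44e-10) and 0.63 ± 0.05 in truncation cells (adjusted p = 1.24e-10). It was higher in truncation cells by log2 0.56 ± 0.05 among scramble cells (adjusted p = 2.95e-09) and 0.59 ± 0.05 among knockdown cells (adjusted p = 9.4e-10).

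FAF1 (ENSG00000185104, chromosome 1, 50437028 to 50960263), known as a Fas-associated factor, had 60.0, 57.7, 59.5 and 54.5 CPM in truncation knockdown cells and 76.7, 81.5, 77.5 and 81.1 CPM in truncation scramble cells. It had 55.3, 55.1, 51.4 and 60.0 CPM in WT knockdown cells and 68.0, 66.7, 69.1 and 63.6 CPM in WT scramble cells. Both knockdown groups lie below both scramble groups, with a log2 fold change of -0.26 ± 0.05 in WT cells (adjusted p = 0.000238) and -0.42 ± 0.05 in truncation cells (adjusted p = 3.03e-07). FAF1 was higher in truncation cells among scramble cells by log2 0.23 ± 0.05 (adjusted p = 0.00102). Among knockdown cells its log2 fold change was 0.07 ± 0.05 (adjusted p = 0.277), with libraries that overlapped. UBXN7 (ENSG00000163960, chromosome 3, 196347662 to 196432474), known to link VCP to cullin ubiquitin ligases, varied more within groups. It ranged over 85.0 to 107 CPM in truncation knockdown cells, 75.2 to 87.1 CPM in truncation scramble cells, 82.97 to 100.5 CPM in WT knockdown cells and 68.4 to 96.8 CPM in WT scramble cells. The log2 fold change of UBXN7 by truncation was -0.02 (95% interval -0.20 to 0.16) among scramble cells and 0.06 (-0.12 to 0.24) among knockdown cells. Knockdown gave log2 0.27 ± 0.09 in truncation cells (adjusted p = 0.0111), which was no longer called without truncation scramble replicate 4 (log2 0.21, adjusted p = 0.0619) or truncation knockdown replicate 4 (log2 0.19, adjusted p = 0.0828). In WT cells the value was 0.19 ± 0.09 (adjusted p = 0.0775), which was called without WT scramble replicate 3 (log2 0.28, adjusted p = 0.00812) or WT knockdown replicate 4 (log2 0.24, adjusted p = 0.0322).

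UBXN4 and UBXN1 also carry a UBX domain. UBXN4 (ENSG00000144224, chromosome 2, 135741619 to 135785055), a membrane protein of the endoplasmic reticulum known to promote the degradation of misfolded proteins there, had 180.5, 190.0, 192 and 174 CPM in truncation knockdown cells and 170.0, 171, 165 and 163 CPM in truncation scramble cells. It had 135, 134, 138 and 125 CPM in WT knockdown cells and 97.5, 100.3, 112 and 106 CPM in WT scramble cells. The 4 groups do not overlap. UBXN4 was higher in truncation cells by log2 0.67 ± 0.05 among scramble cells (adjusted p = 2.51e-10) and 0.48 ± 0.05 among knockdown cells (adjusted p = 7.22e-08), and knockdown raised it by 0.37 ± 0.05 in WT cells (adjusted p = 3.5e-06). In truncation cells the rise with knockdown was 0.17 ± 0.05 (adjusted p = 0.00703), and it was not called without truncation knockdown replicate 3 (log2 0.13, adjusted p = 0.0558) or without the filter on low counts (log2 0.15, adjusted p = 0.087). UBXN1 (ENSG00000162191, chromosome 11, 62676498 to 62679117), known to bind ubiquitin chains and to restrain antiviral and NF-κB signalling, had 74.8, 76.9, 70.5 and 72.9 CPM in truncation knockdown cells and 92.5, 89.7, 90.6 and 99.8 CPM in truncation scramble cells. It had 73.1, 75.7, 62.6 and 80.1 CPM in WT knockdown cells and 94.8, 96.3, 83.3 and 95.4 CPM in WT scramble cells. Every knockdown library lies below every scramble library. UBXN1 was lower in knockdown cells, with log2 fold changes of -0.33 ± 0.06 in WT (adjusted p = 9.19e-05) and -0.30 ± 0.06 in truncation cells (adjusted p = 0.000224). By genotype its log2 fold change was -0.0026 (95% interval -0.13 to 0.13) among scramble cells and 0.03 (-0.10 to 0.16) among knockdown cells, and the libraries overlapped.

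ZFAND2A (ENSG00000178381, chromosome 7, 1152071 to 1160759) encodes AIRAP, a zinc finger protein known to be induced by arsenite and heat and to bind the proteasome. It had 40.2, 36.3, 31.4 and 32.1 CPM in truncation knockdown cells and 29.4, 28.3, 25.1 and 30.5 CPM in truncation scramble cells. It had 19.4, 25.9, 18.7 and 21.8 CPM in WT knockdown cells and 19.0, 15.6, 16.9 and 19.1 CPM in WT scramble cells. For each siRNA the truncation libraries lie above the WT libraries. ZFAND2A was higher in truncation cells by log2 0.67 ± 0.10 among scramble cells (adjusted p = 4.31e-06) and 0.72 ± 0.10 among knockdown cells (adjusted p = 1.02e-06). Knockdown raised it by log2 0.34 ± 0.09 in truncation cells (adjusted p = 0.00332). In WT cells the rise was 0.29 ± 0.10 (adjusted p = 0.0159), with groups that overlapped. It was not called without WT knockdown replicate 2 (log2 0.19, adjusted p = 0.0919), without WT scramble replicate 2 (log2 0.23, adjusted p = 0.07) or without both WT knockdown replicates 2 and 3 (log2 0.22, adjusted p = 0.0972). An antisense gene, AC091729.3, spans 209 bases of ZFAND2A exons. It had 406 to 513 counts in truncation knockdown, 316 to 391 in truncation scramble, 176 to 218 in WT knockdown and 159 to 196 in WT scramble libraries, where ZFAND2A had 958 to 1218, 740 to 880, 567 to 742 and 446 to 545 counts. The strand setting of the counting is not given in the sources used here, so reads of this pair may be shared, and the part of the antisense gene in the rise was not tested. Genes that span exons of UFD1, NSFL1C and UBXN7 had at most 23 counts in a library, and the FAF2 pseudogene FAF2P1 had at most 1.

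**Figure D2:**
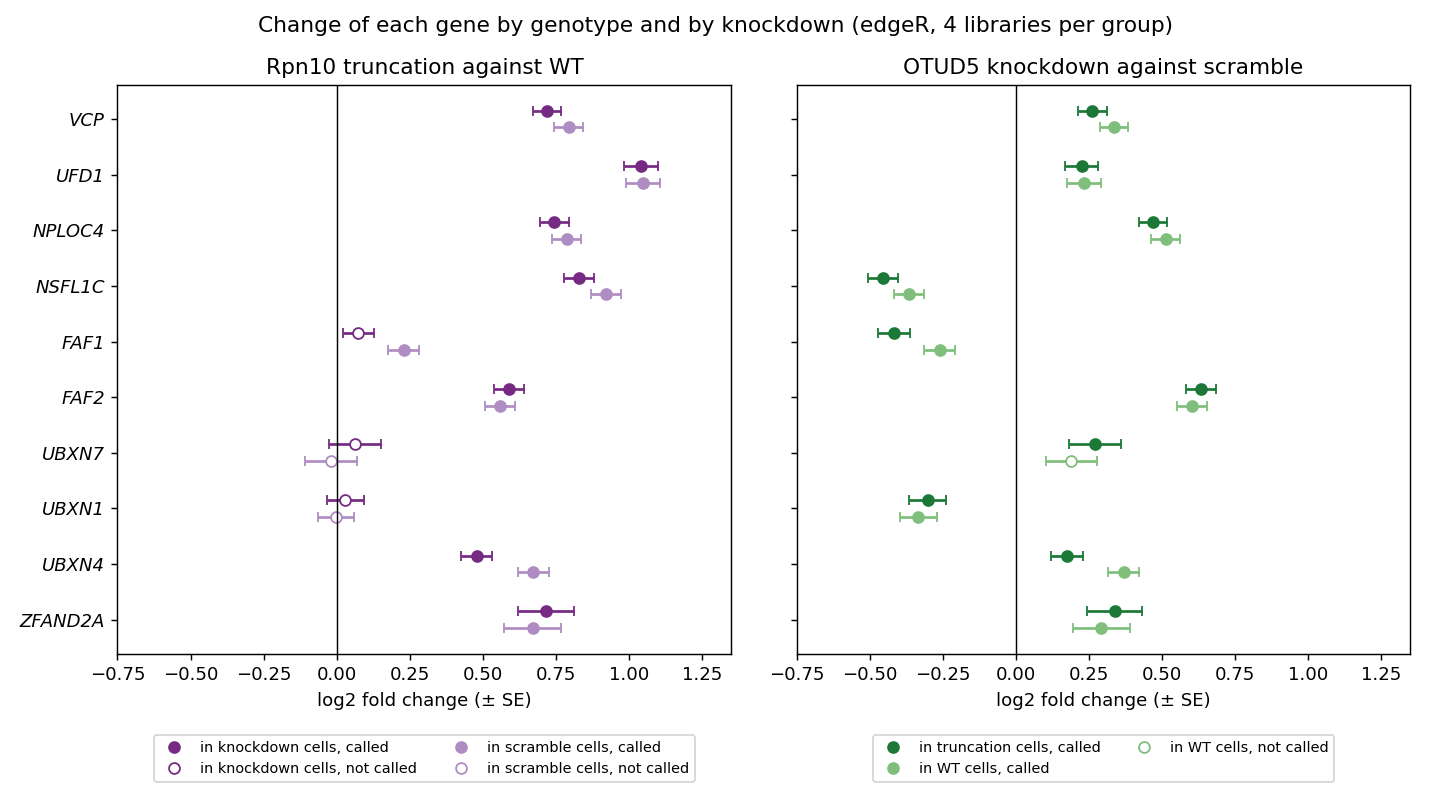
log2 fold change ± SE (horizontal axis) of the 10 genes, with truncation against WT on the left and knockdown against scramble on the right. Filled points were called at an adjusted p under 0.05; on the left no called point lies below 0, and on the right NSFL1C, FAF1 and UBXN1 lie below 0 in both genotypes.

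Whether knockdown acted differently in truncation cells than in WT cells was tested as an interaction. None of the 10 genes was called by edgeR, and neither DESeq2 (0 genes) nor limma (0 genes) called any, where 5.69% of all tested genes were called in either direction (974 genes, and 1661 without WT knockdown replicate 2). At an unadjusted p under 0.05, edgeR gave 2 of the 10, UBXN4 and FAF1. The knockdown effect on UBXN4 was lower by log2 0.19 in truncation cells (interaction -0.19, 95% interval -0.35 to -0.04, adjusted p = 0.139). That on FAF1 had an interaction of -0.16 (95% interval -0.31 to -8e-04, adjusted p = 0.243). For the other 8 genes the interaction lay between -0.09 for NSFL1C (-0.24 to 0.06) and 0.08 for UBXN7 (-0.18 to 0.34). For VCP it was -0.07 (-0.21 to 0.07), for UFD1 -0.0071 (-0.17 to 0.16) and for NPLOC4 -0.04 (-0.18 to 0.10). The intervals are not adjusted over genes, and those of UBXN4 and FAF1 lay below 0 without a call. They therefore do not give the smallest difference that could be called. With 4 libraries a group, differences in the knockdown effect may have gone uncalled.

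The cofactors did not keep a fixed proportion to the ATPase. Ratios of CPM within a library need no scaling between libraries, and 40 of them were compared by an exact two-sided permutation test of log2 ratios (9 cofactors over VCP and UFD1 over NPLOC4, in 4 comparisons), chosen after the values were seen. With 4 libraries against 4 the smallest p is 0.0286, and 26 of the 40 comparisons reached it (0.044 after Benjamini-Hochberg adjustment over the 40). The ratio of UFD1 to NPLOC4, partners in 1 heterodimer, was 0.285 ± 0.008 in truncation knockdown cells, 0.338 ± 0.013 in truncation scramble cells, 0.232 ± 0.009 in WT knockdown cells and 0.282 ± 0.018 in WT scramble cells (SD, n = 4). It was higher with truncation by log2 0.26 among scramble cells and 0.30 among knockdown cells, and it was lower with knockdown, at log2 -0.28 in WT cells and -0.25 in truncation cells, each at an exact permutation p of 0.0286.

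The ratio of NPLOC4 to VCP was not called by genotype. It was 0.861 ± 0.040 in truncation knockdown and 0.845 ± 0.021 in WT knockdown cells (exact permutation p = 0.514), and 0.745 ± 0.011 in truncation scramble and 0.749 ± 0.030 in WT scramble cells (exact permutation p = 0.857; SD, n = 4). Knockdown raised this ratio, by log2 0.21 in truncation cells and 0.18 in WT cells (exact permutation p = 0.0286 each). Of the 9 ratios to VCP, that of NSFL1C differed most with knockdown in both genotypes. NSFL1C over VCP was 0.182 ± 0.007 in truncation knockdown against 0.299 ± 0.008 in truncation scramble cells, and 0.169 ± 0.008 in WT knockdown against 0.273 ± 0.009 in WT scramble cells (SD, n = 4), log2 differences of -0.72 and -0.70 (exact permutation p = 0.0286 each). FAF1 and UBXN1 were lower relative to VCP in all 4 comparisons, by log2 differences of -0.56 to -0.68 for FAF1 and -0.56 to -0.79 for UBXN1 (exact permutation p = 0.0286 each). For ZFAND2A over VCP no comparison was called, with log2 differences of -0.12 to 0.07 (exact permutation p of 0.2 or more).

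**Figure D3:**
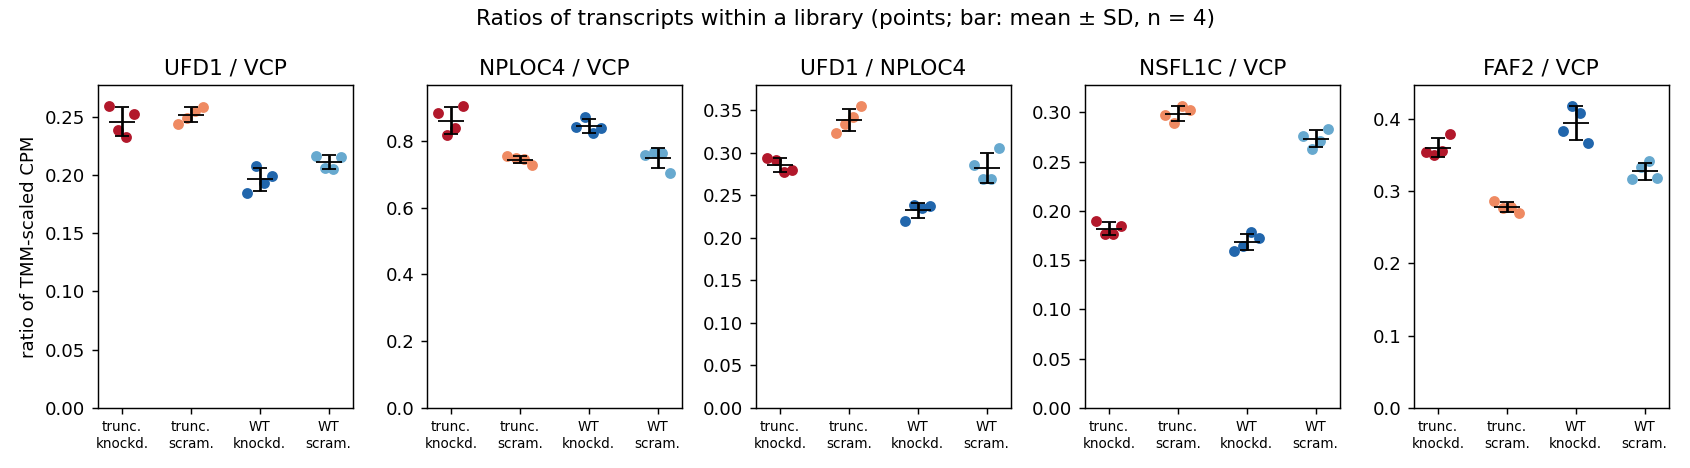
Ratios of TMM-scaled CPM between transcripts of 1 library (vertical axes, from 0, no unit) in truncation knockdown, truncation scramble, WT knockdown and WT scramble cells. Points are libraries and bars are mean ± SD (n = 4); NSFL1C over VCP is 0.182 and 0.169 in the 2 knockdown groups against 0.299 and 0.273 in the scramble groups.

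Levels of different genes were set side by side only per length, as CPM per kilobase (kb) of annotated exon. VCP led in every group, at 164 ± 8.28, 139.7 ± 3.26, 100.03 ± 5.74 and 79.8 ± 2.22 CPM per kb (SD, n = 4) in truncation knockdown, truncation scramble, WT knockdown and WT scramble cells. NPLOC4 came second in 3 groups, at 79.9 ± 1.68, 59.1 ± 1.60 and 48.1 ± 3.68 CPM per kb in truncation knockdown, truncation scramble and WT knockdown cells. In WT scramble cells UBXN1 (36.5 ± 2.43 CPM per kb) and NPLOC4 (33.9 ± 0.48 CPM per kb) overlapped in the next place. UBXN1 then stood at rank 5 in truncation knockdown, 3 in truncation scramble and 4 in WT knockdown cells. In truncation scramble cells UBXN1, FAF2 and NSFL1C overlapped with their neighbours in the order (36.8 ± 1.81, 35.5 ± 1.28 and 34.7 ± 0.64 CPM per kb), as UFD1 and NSFL1C did in truncation knockdown cells (25.0 ± 1.17 and 24.7 ± 0.91 CPM per kb). By their means FAF1, UBXN7 and ZFAND2A took the last 3 places in every group, with ZFAND2A overlapping UFD1, the next above it, in WT knockdown cells. They stood at 7.68, 8.48 and 15.3 CPM per kb in truncation knockdown cells and 8.86, 7.21 and 7.73 CPM per kb in WT scramble cells. The exon length is the union over annotated transcripts, so a gene with many long rare transcripts reads low on this scale.

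**Figure D4:**
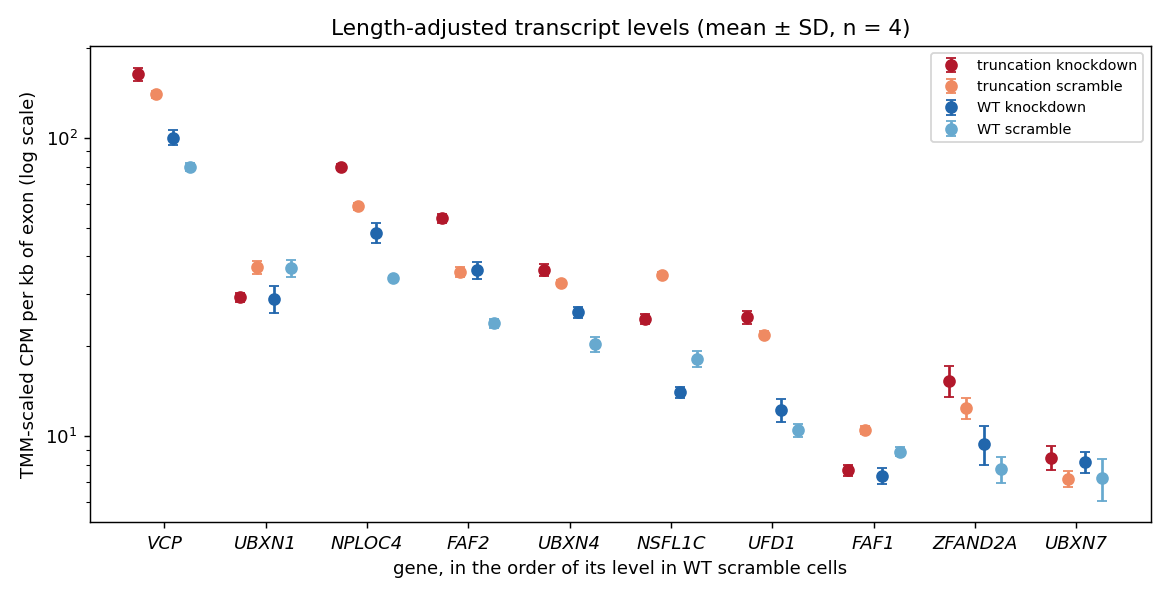
TMM-scaled CPM per kb of exon (vertical axis, log scale) for each gene in the 4 groups, as mean ± SD (n = 4), ordered by the level in WT scramble cells. VCP is highest in each group, at 164 CPM per kb in truncation knockdown and 79.8 CPM per kb in WT scramble cells.

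Across the 16 libraries, which fall into 4 groups, the log2 CPM of VCP ran most closely with UFD1 (Pearson r = 0.98), NPLOC4 (0.98), UBXN4 (0.97), ZFAND2A (0.95) and FAF2 (0.89). It ran less closely with NSFL1C (0.69) and UBXN7 (0.26), and its r with FAF1 was 0.06 and with UBXN1 -0.26. FAF1 and UBXN1 ran together (0.81), and UBXN7 and UBXN1 ran opposite (-0.81). Among the 12316 genes whose log2 CPM averaged 1 or more, the 3 with the highest r to UFD1 were the proteasome subunits PSMB7, PSMB5 and PSMD13 (0.997, 0.996 and 0.995). For VCP the 2 highest were ABHD4 and GABARAPL1, a member of the Atg8 family of autophagy proteins (0.996 and 0.993). For NPLOC4 the 3 highest were OSGIN1, the kinase ITPKC and SLC66A1, a lysosomal transporter (0.996, 0.995 and 0.993), and for ZFAND2A they were the SNARE protein YKT6, the F-box protein FBXO7 and the small Maf protein MAFG (0.983, 0.979 and 0.978). These values describe likeness over 4 groups and say nothing of shared control.

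Other VCP cofactors moved in both directions. Of 25 listed, 24 were tested, and truncation raised 11 and lowered 3 among scramble cells and raised 8 and lowered 3 among knockdown cells, with median log2 fold changes of 0.17 and 0.12. Of all tested genes 21.6% were higher and 22.4% lower among scramble cells, and 21.9% were higher and 23.6% lower among knockdown cells. PLAA, which binds ubiquitin and VCP and is known to help clear damaged lysosomes, rose by log2 0.98 ± 0.06 among scramble cells (adjusted p = 9.39e-13) and 0.90 ± 0.06 among knockdown cells (adjusted p = 6.12e-12). UBE4B, a chain-elongating ubiquitin ligase, rose by 0.78 ± 0.06 and 0.89 ± 0.06 in the same comparisons, and NGLY1, the deglycosylase that processes NRF1, by 0.71 ± 0.07 and 0.64 ± 0.07. SYVN1, the membrane ligase also called HRD1, fell by 0.81 and 0.38 on the log2 scale, and ZFAND2B, the paralogue of ZFAND2A, fell by 0.64 and 0.57 on the log2 scale. ZFAND2A and ZFAND2B therefore moved in opposite directions with truncation.

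With knockdown, 10 of the 24 rose and 4 fell in WT cells, and 10 rose and 7 fell in truncation cells, with median log2 fold changes of 0.14 and 0.14. Of all tested genes 25.2% rose and 25.1% fell in WT cells, and 28.7% rose and 28.1% fell in truncation cells. The 7 that fell are near the share over all genes and the 4 are below it, a difference that was not tested. ATXN3, a deubiquitinase that binds VCP, rose by log2 0.67 ± 0.06 in WT and 0.84 ± 0.06 in truncation cells, and DERL1, a channel protein of the endoplasmic reticulum, by 0.52 ± 0.06 and 0.61 ± 0.06. SVIP, a small inhibitor of VCP at the endoplasmic reticulum, fell the furthest of the list. It averaged 7.60 ± 1.51 CPM in truncation knockdown against 22.1 ± 1.25 CPM in truncation scramble cells and 9.15 ± 0.90 CPM in WT knockdown against 19.9 ± 1.79 CPM in WT scramble cells (SD, n = 4). Its log2 fold changes were -1.51 ± 0.11 (adjusted p = 1.12e-11) and -1.11 ± 0.11 (adjusted p = 4.3e-09). UBXN6, a UBX protein of the endosomal and lysosomal pathway, had -0.69 ± 0.06 in truncation and -0.60 ± 0.06 in WT cells. In the interaction 2 genes of the list were called, SYVN1 (0.43 ± 0.09, adjusted p = 0.00398) and ASPSCR1 (0.36 ± 0.10, adjusted p = 0.0439), a cofactor that takes VCP hexamers apart. Of all tested genes 5.69% were called in the interaction in either direction.

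The 26S proteasome subunits, the machine VCP hands its substrates to, moved with truncation. Of 33 subunits 32 rose and 1, PSMD4, fell among scramble cells, and 33 rose among knockdown cells, with median log2 fold changes of 0.79 in both, where 21.6% and 21.9% of all tested genes rose. PSMC4, an ATPase subunit, had log2 1.38 ± 0.06 in both, and PSMB6, a catalytic core subunit, had 1.25 ± 0.07 among scramble and 1.27 ± 0.07 among knockdown cells. With knockdown 12 rose and 5 fell in WT cells and 15 rose and 7 fell in truncation cells, with medians of 0.10 and 0.14. Over all tested genes 25.2% rose and 25.1% fell in WT cells and 28.7% rose and 28.1% fell in truncation cells. Differences of the subunits from these shares were not tested. PSMB3 (-0.60 in WT and -0.66 in truncation cells) and PSMD14, the deubiquitinase of the lid (-0.51 and -0.69), fell with knockdown, while VCP, UFD1 and NPLOC4 rose. PSMD4 and PSMA2 were called in the interaction (0.54 ± 0.08 and 0.73 ± 0.20), where 5.69% of all tested genes were called in either direction.

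Of 5 genes for the processing of NRF1 (NFE2L1, DDI2, NGLY1, SEL1L and SYVN1, of which only NFE2L1 is in no other list here), 2 rose and 2 fell in each comparison of 2 groups except knockdown in truncation cells, where 3 rose and 2 fell. Over these comparisons 21.6% to 28.7% of all tested genes rose, and a further 22.4% to 28.1% fell. SYVN1 was the gene of the 5 called in the interaction, where 5.69% of all tested genes were called in either direction. NFE2L1 itself rose by log2 0.32 ± 0.05 with knockdown in both WT (adjusted p = 3.15e-05) and truncation cells (adjusted p = 2.23e-05). DDI2, the protease that cleaves NRF1, fell with knockdown, by a log2 fold change of -0.56 ± 0.08 in WT and -0.72 ± 0.08 in truncation cells. Of 18 tested genes for degradation at the endoplasmic reticulum, truncation raised 7 and lowered 4 among scramble cells and raised 9 and lowered 2 among knockdown cells (medians 0.08 and 0.16), where 21.6% and 21.9% of all tested genes rose and 22.4% and 23.6% fell. Knockdown raised 10 and lowered 3 in WT cells and raised 12 and lowered 2 in truncation cells (medians 0.17 and 0.35), where 25.2% and 28.7% of all tested genes rose and 25.1% and 28.1% fell. ERLEC1, a lectin, rose with truncation (0.52 ± 0.06 among scramble and 0.55 ± 0.06 among knockdown cells), and EDEM2 and EDEM3, which trim glycans, rose with knockdown (0.59 ± 0.06 and 0.51 ± 0.07 in WT cells). EDEM1 and SYVN1 were the genes of this list called in the interaction (0.36 ± 0.11 and 0.43 ± 0.09), against 5.69% of all tested genes.

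ZFAND2A rose with knockdown, and none of the listed heat shock genes did. Of 15 heat shock genes 0 rose and 8 fell with knockdown in WT cells (median -0.27), and 0 rose and 13 fell in truncation cells (median -0.33). Over all tested genes 25.2% rose and 25.1% fell in WT cells, and 28.7% rose and 28.1% fell in truncation cells. DNAJB1, a co-chaperone, had -0.82 ± 0.06 in WT (adjusted p = 2.96e-11) and -1.10 ± 0.06 in truncation cells (adjusted p = 8.02e-14), and HSPA1B, an inducible HSP70, had -0.49 ± 0.08 and -0.73 ± 0.08. HSPA1B has a near-identical copy, HSPA1A, so reads may be split between them. With truncation 6 rose and 2 fell among scramble cells and 2 rose and 5 fell among knockdown cells (medians 0.16 and -0.09), where 21.6% and 21.9% of all tested genes rose and 22.4% and 23.6% fell. BAG3, an HSP70 cofactor, rose in both (0.51 ± 0.06 and 0.60 ± 0.06), and HSPD1, the mitochondrial chaperonin, fell in both, with log2 fold changes of -0.33 ± 0.05 and -0.52 ± 0.05. In the interaction 2 were called, HSPA8 (-0.39 ± 0.11) and DNAJB1 (-0.28 ± 0.08), where 5.69% of all tested genes were called in either direction.

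Shuttle factors and ubiquitin receptors were mixed. Of 13 tested, truncation raised 5 and lowered 1 among scramble cells and raised 4 and lowered 3 among knockdown cells (medians 0.12 and 0.03), where 21.6% and 21.9% of all tested genes rose and 22.4% and 23.6% fell. SQSTM1 (p62), an autophagy receptor, rose by log2 1.03 ± 0.06 and 1.10 ± 0.06, and ZFAND5, a proteasome-binding paralogue in the ZFAND family, by 0.71 ± 0.05 in both. Knockdown raised 4 and lowered 3 in WT cells and raised 3 and lowered 4 in truncation cells (medians 0.07 and -0.0061), which is near the shares over all tested genes (25.2% higher and 25.1% lower in WT cells, 28.7% and 28.1% in truncation cells). UBQLN2 was the gene of this list called in the interaction (-0.31 ± 0.08, adjusted p = 0.0184), against 5.69% of all tested genes.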

How the data were processed

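HCT116 RNA was sequenced from 16 libraries in 4 groups. The authors deposited raw counts per gene and, as a signal table, TMM-scaled CPM, which equalled CPM recomputed from their filtered counts to a relative difference of 5e-15. Per the submitters' processing notes the tools were STAR 2.7.3a, DESeq2, edgeR and limma on hg38, with no annotation or strand setting named. Raw counts were filtered with filterByExpr, TMM-scaled and tested in edgeR 4.0.16 (R 4.3.3) by quasi-likelihood, with 1 coefficient per group, two-sided, with Benjamini-Hochberg adjustment over 17104 genes holding at least 99.83% of each library's counts. Values after ± are SE unless named SD. Levels are the deposited CPM; coordinates are GRCh38 from GENCODE 29.

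Groups follow the library names in the labels. Replicates are called biological, with no separate cultures named, so the p-values rest on spread that may be technical; no libraries were identical. Equal replicate numbers did not pair libraries. The genes and lists were chosen with earlier results of these data known. From each list up to 4 called genes with the largest changes per comparison could be named. Some genes that these rules select are not reported here. Alternatives were RLE and upper-quartile scaling, no filter, the authors' filtered genes, DESeq2 1.42.0, limma 3.58.1 on log2(CPM + 1), 2-group fits, a replicate block and each library left out. Leaving out WT knockdown replicates 2 and 3 together, and the within-library ratios with each library left out, were added after seeing the data. Only the edgeR test was tried on simulated data. These held fewer changed genes, with changes larger than the median here, so power in the real data was not measured.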

Additional observations from a re-analysis of the deposited data

Results flagged for a closer look

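Within the 40 groups of 4 values (10 genes in 4 groups), 3 held a library whose gap to the nearest of the others was larger than Dixon's 95% critical value allows for 4 values, and chance gives about 1 in 20. VCP in truncation scramble replicate 3 was at 733 CPM, against 766 to 769.8 CPM in the other 3. VCP in WT knockdown replicate 3, the library with the most detected genes, was at 497 CPM, against 555 to 562 CPM. UBXN1 in WT scramble replicate 3 was at 83.3 CPM, against 94.8 to 96.3 CPM. The calls of VCP held in all 4 comparisons of 2 groups with each of these libraries left out.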

How the results depend on the processing

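Over 25 alternatives, the 50 comparisons of a gene gave 1240 values, of which 1185 kept direction and call, 7 lost the call, 3 gained it and 45 changed sign. All 45 were of values that were not called. All 320 refits of within-library ratios moved by less than the spread between replicates. With 4 libraries a group, leaving out 1 cannot move a mean by more than that spread, so this outcome was fixed in advance. The losses and gains (ZFAND2A, UBXN7 and UBXN4 with knockdown) stand beside their results, except that UBXN7 in WT cells was called without the filter on low counts (log2 0.18, adjusted p = 0.0306). For UBXN1 among scramble cells, truncation against WT gave 0.0066 with RLE scaling and with DESeq2, 0.0115 with no filter and with the authors' filtered genes, 0.0126 with limma, 0.005 with only the 2 groups and 0.0082 without WT knockdown replicates 2 and 3. Leaving out that pair gave -0.0434 for UBXN1 among knockdown cells and -0.0515 for its interaction. UBXN7 among scramble cells gave 0.0067 with limma. Upper-quartile scaling gave interactions of 0.0432 for UFD1 and 0.0092 for NPLOC4. With 1 library left out at a time, truncation against WT ranged from -0.0924 to 0.0751 for UBXN7 and -0.0495 to 0.0271 for UBXN1 among scramble cells, and from -0.0026 to 0.1098 and -0.0378 to 0.0717 among knockdown cells. Interactions ranged from -0.0658 to 0.0335 for UFD1, -0.0047 to 0.0729 for FAF2, -0.0144 to 0.1534 for UBXN7, -0.0451 to 0.077 for UBXN1 and -0.0468 to 0.1438 for ZFAND2A. The cause of these shifts was not tested. Over all genes, the interaction called 974, against 1470 with DESeq2, 1642 without WT knockdown replicates 2 and 3, and 653 to 1661 with 1 library left out, the highest without WT knockdown replicate 2. Of its called genes 35.9% were higher, against 55.8% with upper-quartile scaling, and no scaling moved the median of all genes by more than 0.0552. Equal replicate numbers had correlations of -0.084 to 0.164, and in 7 of 24 pairings a library correlated best with its own number. With a replicate block, 8, 7, 6 and 7 of the 10 genes were higher and 0, 0, 3 and 3 lower in the 4 comparisons of 2 groups. Of all 17104 tested genes, 3817, 3848, 4389 and 4988 were higher and 3887, 4078, 4366 and 4870 lower with the block. In the interaction 1150 genes were called with it. Counting error is small at the depth of VCP (12173 counts or more in each library) and larger for ZFAND2A (446 or more).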
